A study of Homo sapiens with 9 samples.

Results

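The Krüppel-like factors (KLFs) are transcription factors, and 10 of the 18 KLF genes listed in the deposited table are described here: KLF2, KLF3, KLF4, KLF5, KLF6, KLF7, KLF9, KLF10, KLF11 and KLF17. They were taken as the table's rows with these symbols, out of 40332 rows, and were chosen by measured values, their CPM levels and fold changes between the 3 groups in these 9 libraries. Their levels and fold changes are therefore given as a description, without p-values. Where a member is said to be called or not called, this too is a description and not a test. RNA-seq was made from wild-type H1 cells, a long-established line of human embryonic stem cells, in 3 groups of 3 libraries. The first group grew in PXGL, a medium that keeps human pluripotent cells in a naive, pre-implantation-like state through LIF and inhibitors of the kinases MEK and PKC and of tankyrase. The second was in basal N2B27, the same base without these additions. The third received 5 µM EPZ-6438 (tazemetostat) in N2B27 for 3 days. This compound inhibits EZH2, the enzyme of Polycomb repressive complex 2 that methylates histone H3 at lysine 27. The sample titles of both N2B27 groups carry PXGL as a prefix. The sources used here do not say how long the basal N2B27 group was kept in that medium, so time in N2B27 and the inhibitor cannot be told apart. All groups share a single cell line, and the labels do not say whether replicate libraries came from separate cultures, so p-values cover only library-to-library spread, possibly technical.

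KLF proteins bind DNA through a conserved zinc finger domain at the C terminus, which reads GC-rich boxes and CACCC elements, and their N-terminal parts recruit different partners. KLF2, KLF4 and KLF5 sustain the self-renewal of mouse embryonic stem cells, KLF4 is among the classical reprogramming factors, and KLF17 is a marker of the human naive state and of the early human embryo. KLF6 and KLF7 are broadly expressed activators. KLF3 binds the corepressor CTBP, and KLF9, KLF10 and KLF11 bind the corepressor SIN3A.

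Promoter windows of the members were searched for the elements that KLF and SP proteins bind. RefSeq promoter windows (GRCh38.p14) were matched for 8 of the 10 members, all but KLF3 and KLF10, and gave 13 windows of 250 bases before a transcription start. CACCC (or its complement GGGTG) and GGGCGG (or its complement CCGCCC) were searched on both strands. Over all 35114 windows of this length, 54.7% held CACCC and 42.6% held GGGCGG. Among the members, CACCC was found in windows of KLF17, KLF5, KLF7 and KLF11, and in none of KLF4, KLF2, KLF6 and KLF9. GGGCGG was found in a window of each matched member but KLF9. KLF17 is shown because its level followed a different pattern from that of KLF4. Its window, chr1:44118571-44118820 on the plus strand, ended 29 bases before the first GENCODE exon and held 6 CACCC matches, in capitals below, a number reached by 0.384% of windows. It also held 4 GGGCGG matches, 1 of which shared a base with a CACCC match. KLF4 is shown for contrast. Its window, chr9:107489770-107490019 on the minus strand, lay in an intron of a longer KLF4 transcript model, 3 bases before the next exon. It held no CACCC match and 4 GGGCGG matches, in capitals, and 7.63% of windows held at least 4. KLF2 is shown because MEF2 factors are described as its activators downstream of the kinase ERK5. Its stretch, chr19:16324576-16324816 on the plus strand, ends at the first GENCODE exon, and the capitals mark a match to the MEF2 consensus, which 2.8% of windows held.
KLF17: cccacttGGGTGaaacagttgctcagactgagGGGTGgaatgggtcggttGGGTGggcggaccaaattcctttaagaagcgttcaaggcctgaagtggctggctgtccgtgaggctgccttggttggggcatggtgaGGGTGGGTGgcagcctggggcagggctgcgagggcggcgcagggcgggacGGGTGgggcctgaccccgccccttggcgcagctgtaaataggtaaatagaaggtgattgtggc
KLF4: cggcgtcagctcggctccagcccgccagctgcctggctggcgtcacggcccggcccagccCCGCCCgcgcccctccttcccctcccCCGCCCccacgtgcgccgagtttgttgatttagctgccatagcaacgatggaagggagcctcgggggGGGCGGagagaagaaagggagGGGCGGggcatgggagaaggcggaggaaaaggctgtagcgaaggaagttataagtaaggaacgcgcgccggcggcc
KLF2: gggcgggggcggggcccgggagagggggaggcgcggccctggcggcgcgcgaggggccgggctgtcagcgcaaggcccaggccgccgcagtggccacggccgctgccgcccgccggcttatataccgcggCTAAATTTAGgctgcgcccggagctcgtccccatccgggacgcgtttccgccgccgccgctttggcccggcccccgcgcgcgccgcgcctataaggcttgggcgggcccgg
These matches are a description of the letters and not of bound sites. The GC content of the full windows was 62.8% for KLF17, 69.2% for KLF4 and 80.0% for KLF2, against a median of 58% over all windows. KLF9 stood at the other end with 32.4% GC and neither element. One of the KLF11 windows held 6 GGGCGG matches, which 2.22% of windows reach. TTCNNNGAA, the form of element that STAT3 binds, matched once, in a KLF7 window, and was present in 6.57% of all windows.

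Depth was similar across libraries, with 17499691 to 18358519 counts in PXGL, 14482124 to 15295189 in N2B27 and 14719595 to 16479593 with the inhibitor, so that 3 counts correspond to 0.164 to 0.211 CPM (counts per 1e6 counts of the scaled library). The PXGL libraries varied more among themselves (biological coefficient of variation 12.5%) than those in N2B27 (4.83%) or with the inhibitor (5.70%). PXGL replicate 1 stood apart, with 7.22% of counts from ribosomal protein genes against 5.92% and 5.51% in the other PXGL libraries. A sum of 6 primed-state markers was 23.5 to 24.7 CPM in PXGL, 517 to 532 CPM in N2B27 and 239 to 247 CPM with the inhibitor. A sum of 7 naive markers that includes KLF17 was 2800 to 3299, 2295 to 2303 and 2469 to 2527 CPM in the same order, and all 6 general pluripotency markers had counts in every group, with sums of 3413 to 3806, 5446 to 5530 and 4462 to 4480 CPM. Sums of other cell types' markers also moved. Hypoblast markers (5 of 6 with a count, APOA1 at 0) were 13.2 to 14.0 CPM in PXGL, 20.3 to 21.2 CPM in N2B27 and 35.8 to 39.8 CPM with the inhibitor. Fibroblast markers were 14.0 to 19.4, 54.1 to 56.3 and 43.9 to 45.8 CPM, with LUM and POSTN at 0 in PXGL, COL3A1, DCN and LUM at 0 in N2B27 and DCN at 0 with the inhibitor. Endothelial and blood markers were 13.6 to 18.9, 33.2 to 37.4 and 33.4 to 34.6 CPM, with HBG1 at 0 throughout and PTPRC also at 0 in N2B27. Amnion markers were 8.99 to 9.27, 2.25 to 2.60 and 5.90 to 7.05 CPM, with VTCN1 at 0, and the trophectoderm sum was 172 to 193, 178 to 192 and 151 to 156 CPM with all 6 markers counted. TEAD4 made up most of the trophectoderm sum (means of 171, 176 and 134 CPM). CDX2 (0.0457 to 2.45 CPM), GATA3 (2.04 to 6.68), GATA2 (0.823 to 1.54), TFAP2A (0.163 to 1.54) and KRT7 (4.95 to 6.71) were higher with the inhibitor than in N2B27. The part of these shifts in the KLF levels was not tested. In bulk RNA, fewer cells that express a gene and less RNA per cell cannot be told apart.

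A gene was called changed when its Benjamini-Hochberg adjusted p from edgeR's quasi-likelihood test was under 0.05 over all 15179 genes tested. All 10 members passed the filter on low counts. From PXGL to N2B27, 8 members were lower, 1 (KLF10) was higher and 1 (KLF17) was not called, and for 9 the libraries of the groups did not overlap. At this comparison 56.0% of all genes tested were called, 28.7% as lower and 27.3% as higher, and 60.8% did not overlap. With the inhibitor relative to N2B27, 6 members were higher (KLF3, KLF4, KLF6, KLF10, KLF11 and KLF17), none was lower and 4 were not called (KLF2, KLF5, KLF7 and KLF9), while 24.7% of all genes were called, 14.2% as higher and 10.6% as lower. Here 8 members and 46.4% of all genes did not overlap. With the inhibitor relative to PXGL, 6 were lower, 3 were higher (KLF6, KLF10 and KLF17) and KLF3 was not called, beside 56.1% of all genes called, 28.1% as higher and 28.0% as lower. All 10 members and 60.7% of all genes did not overlap. The members' median log2 fold changes were -0.93, 0.35 and -0.49 in these 3 comparisons, and those of all genes were -0.03, 0.01 and 0.00. Since the members were chosen with these values known, nothing is read from their counts against the background. The gene lists below were also chosen with earlier results of these data known, and many of their named genes by the smallest adjusted p. Their adjusted p-values are thus a description and not a test. Without PXGL replicate 1, the library that stood apart, 9 members were called from PXGL to N2B27, 7 with the inhibitor against N2B27 and 8 with the inhibitor against PXGL. Each pair of comparisons shares a group of libraries, so the fold changes are given side by side and not as separate evidence.

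**Figure D1:**
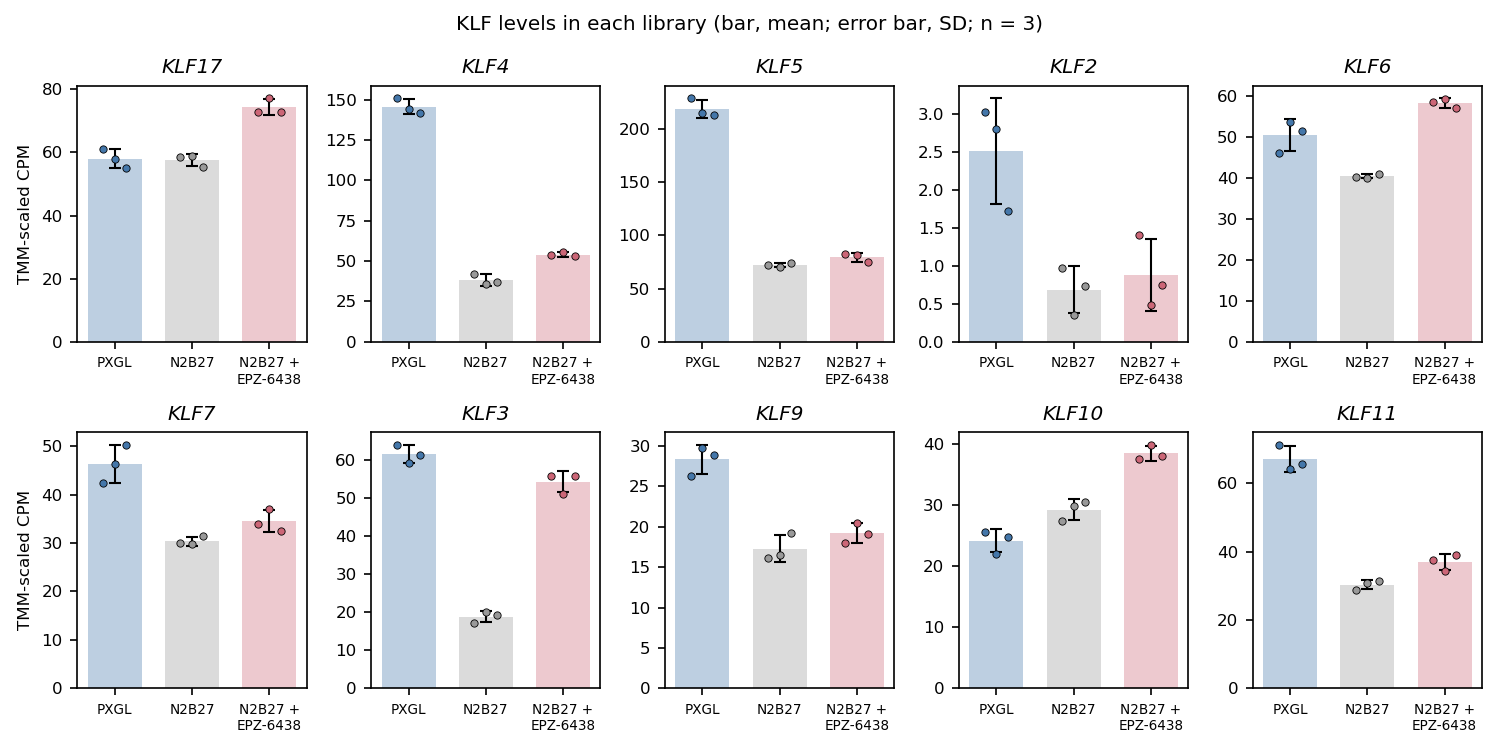
Level of each of the 10 KLF genes in TMM-scaled CPM, with 1 point per library, a bar from 0 to the mean and an error bar of 1 SD for PXGL, N2B27 and N2B27 with EPZ-6438 (n = 3 each). The inhibitor libraries sit highest for KLF17, KLF6 and KLF10, and the PXGL libraries sit highest for the other 7 genes.

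KLF17, the naive-state marker, kept its PXGL level in N2B27 and was higher with the inhibitor than in both other groups. The gene lies on chromosome 1 from 44118850 to 44135140 (hg38, GENCODE 29, plus strand). Its level was 61.0, 58.0 and 55.1 CPM in the PXGL libraries, 58.6, 59.0 and 55.5 CPM in N2B27 and 72.7, 77.2 and 72.8 CPM with the inhibitor. The PXGL and N2B27 libraries overlapped, and the inhibitor libraries lay above all of them. The means were 58.0 ± 2.95, 57.7 ± 1.91 and 74.2 ± 2.55 CPM (SD, n = 3 each). N2B27 differed from PXGL by a log2 fold change of -0.01 (SE 0.07), whose sign turned in 6 of 15 alternatives (0.00 to 0.03). The inhibitor group was 1.29-fold above N2B27 (log2 0.36, SE 0.07) and 1.28-fold above PXGL, and both were called. KLF17 was the member with the smallest change on leaving PXGL.

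KLF4, the reprogramming factor, had the largest fitted fall on leaving PXGL, close to that of KLF2, and was higher again with the inhibitor, though below PXGL. The gene spans 107484852 to 107490482 on chromosome 9 (minus strand). It stood at 151, 144 and 142 CPM in PXGL, at 42.3, 35.8 and 36.9 CPM in N2B27 and at 53.5, 55.5 and 53.1 CPM with the inhibitor. The 3 groups did not overlap, and the means were 145 ± 4.74, 38.3 ± 3.47 and 54.0 ± 1.30 CPM (SD, n = 3 each). KLF4 was 3.8-fold lower in N2B27 than in PXGL (log2 -1.92, SE 0.08), 1.41-fold higher with the inhibitor than in N2B27 (log2 0.50, SE 0.08) and 2.69-fold below PXGL with the inhibitor.

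KLF5, an activator of epithelial and stem cells, fell nearly as far and stayed low. It lies on chromosome 13 from 73054976 to 73077542 (plus strand). The PXGL libraries held 229, 215 and 214 CPM, the N2B27 libraries 72.4, 70.3 and 73.8 CPM and the inhibitor libraries 82.9, 81.2 and 74.9 CPM. The inhibitor libraries lay just above those in N2B27 without overlap, and both lay far below PXGL. The means were 219 ± 8.58, 72.2 ± 1.76 and 79.7 ± 4.23 CPM (SD, n = 3 each). The fall from PXGL to N2B27 was 3.04-fold (log2 -1.60, SE 0.07). The difference between the inhibitor and N2B27 was 1.10-fold (log2 0.14, SE 0.07) and was not called with all 9 libraries. It was called when PXGL replicate 1 was left out or when only the 2 groups were fitted, with the same log2 value of 0.14.

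KLF2, which partners KLF4 and KLF5 in mouse embryonic stem cells, was the scarcest member. The gene spans 16324817 to 16327874 on chromosome 19 (plus strand). It had 55, 51 and 31 counts in the PXGL libraries, 14, 5 and 11 in N2B27 and 21, 8 and 11 with the inhibitor. These counts correspond to 3.02, 2.79 and 1.72 CPM, to 0.975, 0.352 and 0.734 CPM and to 1.41, 0.487 and 0.746 CPM. Every PXGL library lay above every other library, and the N2B27 and inhibitor libraries overlapped. The means were 2.51 ± 0.692, 0.687 ± 0.314 and 0.880 ± 0.476 CPM (SD, n = 3 each). KLF2 was 3.62-fold lower in N2B27 than in PXGL (log2 -1.86, SE 0.45) and 2.86-fold lower with the inhibitor than in PXGL. Its log2 difference of 0.34 between the inhibitor and N2B27 had an SE of 0.50, so a difference of this size was not detectable at this depth. Single libraries set this value: it was -0.17 without inhibitor replicate 1, 0.03 without N2B27 replicate 2, 0.64 without inhibitor replicate 2 and 0.67 without N2B27 replicate 1.

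KLF6, a broadly expressed activator, was lower in N2B27 and highest with the inhibitor. It lies on chromosome 10 from 3775996 to 3785281 (minus strand). Its levels were 46.1, 53.6 and 51.3 CPM in PXGL, 40.2, 40.0 and 40.9 CPM in N2B27 and 58.5, 59.2 and 56.9 CPM with the inhibitor, and the groups did not overlap. The mean fell from 50.3 ± 3.87 to 40.4 ± 0.449 CPM between PXGL and N2B27 (SD, n = 3 each), or 1.25-fold (log2 -0.32, SE 0.08). With the inhibitor it was 58.2 ± 1.14 CPM (SD, n = 3), 1.44-fold above N2B27 (log2 0.53, SE 0.08). The 1.16-fold difference from PXGL (log2 0.21) was called, but the call ended in 5 of 15 alternatives, among them the fit without PXGL replicate 1 (log2 0.15).

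KLF7, the close paralog of KLF6, moved less. The gene covers 207074137 to 207167267 on chromosome 2 (minus strand). The libraries held 42.5, 46.3 and 50.3 CPM in PXGL, 29.9, 29.7 and 31.4 CPM in N2B27 and 34.0, 37.0 and 32.5 CPM with the inhibitor. The groups did not overlap, with means of 46.4 ± 3.93, 30.4 ± 0.910 and 34.5 ± 2.26 CPM (SD, n = 3 each). KLF7 was 1.53-fold lower in N2B27 than in PXGL (log2 -0.61, SE 0.09). The inhibitor value was 1.14 times that in N2B27 (log2 0.19, SE 0.09) and was not called.

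KLF3, the CTBP-binding repressor, had the largest fold change with the inhibitor of the 10 genes. It lies on chromosome 4 from 38664196 to 38701042 (plus strand). Its level was 64.1, 59.3 and 61.5 CPM in PXGL, 17.2, 20.1 and 19.3 CPM in N2B27 and 56.0, 51.2 and 55.9 CPM with the inhibitor. The N2B27 libraries lay far below the rest, and the inhibitor libraries lay just under those in PXGL without overlap. The means were 61.6 ± 2.40, 18.9 ± 1.51 and 54.3 ± 2.71 CPM (SD, n = 3 each). KLF3 was 3.26-fold lower in N2B27 than in PXGL (log2 -1.71, SE 0.09) and 2.88-fold higher with the inhibitor than in N2B27 (log2 1.52, SE 0.09). Against PXGL the inhibitor value was 1.13-fold lower (log2 -0.18, SE 0.08), which was not called.

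The antisense gene KLF3-AS1 overlaps the first 688 bases of the KLF3 span on the opposite strand. The sources used here do not state strandedness, so reads of the overlap cannot be assigned to either gene. KLF3-AS1 had 3, 2 and 3 counts in PXGL, 5, 2 and 0 in N2B27 and 22, 10 and 9 with the inhibitor. It did not pass the filter and was not tested. Its mean level of 0.898 CPM with the inhibitor was small beside the 54.3 CPM of KLF3.

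**Figure D2:**
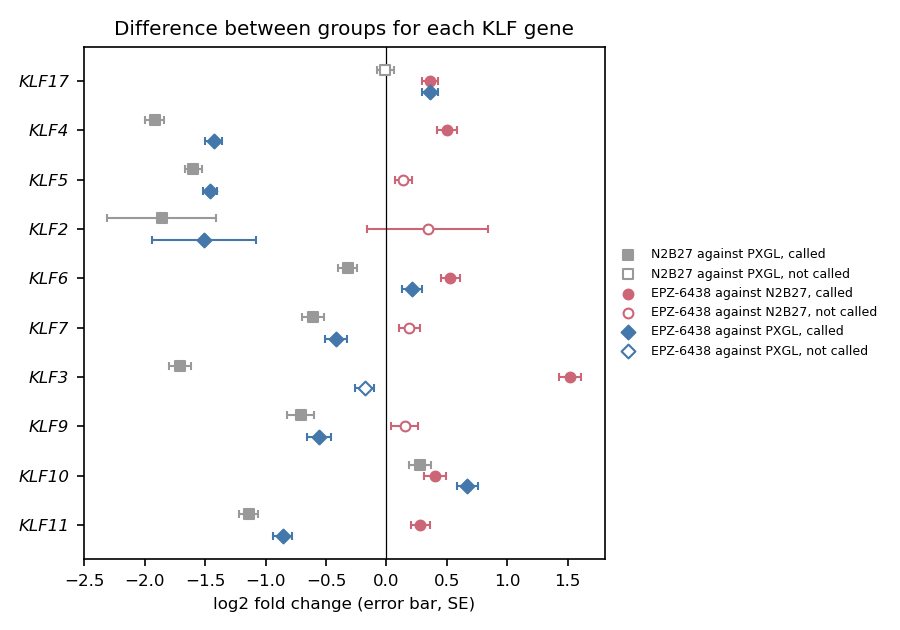
Log2 fold change of each of the 10 KLF genes in the 3 comparisons, with bars of 1 SE and filled symbols for genes called at an adjusted p under 0.05 (squares N2B27 against PXGL, circles the inhibitor against N2B27, diamonds the inhibitor against PXGL). KLF3 stands out in the comparison of the inhibitor with N2B27 at 1.52, and KLF4, KLF2, KLF3 and KLF5 lie lowest in the comparison of N2B27 with PXGL, at -1.92 to -1.60.

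KLF9, KLF10 and KLF11 all bind SIN3A. KLF9 and KLF11 were highest in PXGL and lowest in N2B27, and KLF10 was lowest in PXGL and highest with the inhibitor. KLF9, a target of glucocorticoid and thyroid hormone receptors, lies on chromosome 9 from 70384597 to 70414624 (minus strand). It stood at 26.3, 29.8 and 28.9 CPM in PXGL, at 16.1, 16.5 and 19.2 CPM in N2B27 and at 18, 20.4 and 19.1 CPM with the inhibitor. The N2B27 and inhibitor libraries overlapped, and all lay under PXGL. The means were 28.4 ± 1.81, 17.3 ± 1.69 and 19.2 ± 1.23 CPM (SD, n = 3 each). The fall to N2B27 was 1.64-fold (log2 -0.71, SE 0.11), and the log2 difference of 0.15 (SE 0.11) between the inhibitor and N2B27 was not called.

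KLF10, described as an early gene of TGF-beta signalling, was the only member called higher in N2B27 than in PXGL. It spans 102648779 to 102655902 on chromosome 8 (minus strand). The libraries held 25.6, 22 and 24.8 CPM in PXGL, 27.3, 29.8 and 30.5 CPM in N2B27 and 37.4, 39.8 and 38.0 CPM with the inhibitor. The 3 groups rose in this order without overlap, with means of 24.1 ± 1.86, 29.2 ± 1.68 and 38.4 ± 1.25 CPM (SD, n = 3 each). The first step was 1.21-fold (log2 0.28, SE 0.09), and its call ended without PXGL replicate 2 (0.21), N2B27 replicate 2 (0.26) or N2B27 replicate 3 (0.25). The second step was 1.32-fold (log2 0.40, SE 0.09), and the inhibitor group was 1.59-fold above PXGL (log2 0.67).

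KLF11, the closest paralog of KLF10, moved the other way on leaving PXGL. It lies on chromosome 2 from 10042849 to 10054836 (plus strand) and shares 416 bases with the antisense gene AC104794.4 at its end. Its level was 71.2, 64.1 and 65.7 CPM in PXGL, 28.8, 30.9 and 31.3 CPM in N2B27 and 37.5, 34.4 and 38.8 CPM with the inhibitor. No groups overlapped, and the means were 67.0 ± 3.75, 30.3 ± 1.38 and 36.9 ± 2.30 CPM (SD, n = 3 each). KLF11 was 2.21-fold lower in N2B27 than in PXGL (log2 -1.14, SE 0.08). The 1.22-fold higher level with the inhibitor (log2 0.28, SE 0.08) was called, but the call ended without N2B27 replicate 1 (0.24), N2B27 replicate 2 (0.29), inhibitor replicate 1 (0.27) or inhibitor replicate 3 (0.24).

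Levels of different genes were compared per kilobase of exon, as CPM divided by the joint length of the gene's GENCODE exons. In PXGL the order began with KLF5 at 56.3 ± 2.20 CPM per kb and KLF4 at 39.8 ± 1.30 CPM per kb, followed by KLF17 at 18.5 ± 0.943 CPM per kb and KLF11 at 14.6 ± 0.818 CPM per kb (SD, n = 3 each). In N2B27 KLF5 (18.5 ± 0.453 CPM per kb) and KLF17 (18.4 ± 0.611 CPM per kb) did not differ beyond their spread, and KLF4 came next among the members at 10.5 ± 0.948 CPM per kb (SD, n = 3 each). With the inhibitor KLF17 led at 23.7 ± 0.813 CPM per kb, ahead of KLF5 at 20.5 ± 1.09 and KLF4 at 14.8 ± 0.355 CPM per kb (SD, n = 3 each). KLF3 stood at 9.78 CPM per kb in PXGL, 3.00 in N2B27 and 8.63 with the inhibitor. KLF2 was the lowest member in all 3 groups, at 1.24, 0.340 and 0.436 CPM per kb. With the longest transcript as the length, 21 of the members' 30 levels moved by at least 1 SD. The leading pair kept its order in each group, but the distances changed. KLF5 became 20.2 CPM per kb in N2B27 beside 18.4 for KLF17. With the inhibitor it became 22.3 beside 23.7 for KLF17. Other places changed, such as those of KLF6 and KLF10 in N2B27 and with the inhibitor.

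Summed over all 18 KLF genes, the level per length was 196 ± 2.37 CPM per kb in PXGL, 104 ± 0.872 in N2B27 and 130 ± 0.624 with the inhibitor (SD, n = 3 each). The 10 members made up 84.2% ± 1.56, 75.2% ± 0.460 and 78.9% ± 1.08 of this sum. KLF4 and KLF5 together held 49.0% ± 1.29 of it in PXGL, 28.0% ± 0.879 in N2B27 and 27.1% ± 0.882 with the inhibitor (SD, n = 3 each). The inhibitor libraries had a larger sum than N2B27, and the share of KLF4 and KLF5 in it differed by less than 1 percentage point between the means. KLF17 held 9.46%, 17.8% and 18.2% in the same order of groups. KLF3 held 4.99%, 2.90% and 6.64%, and KLF10 held 3.07%, 7.04% and 7.39%.

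**Figure D3:**
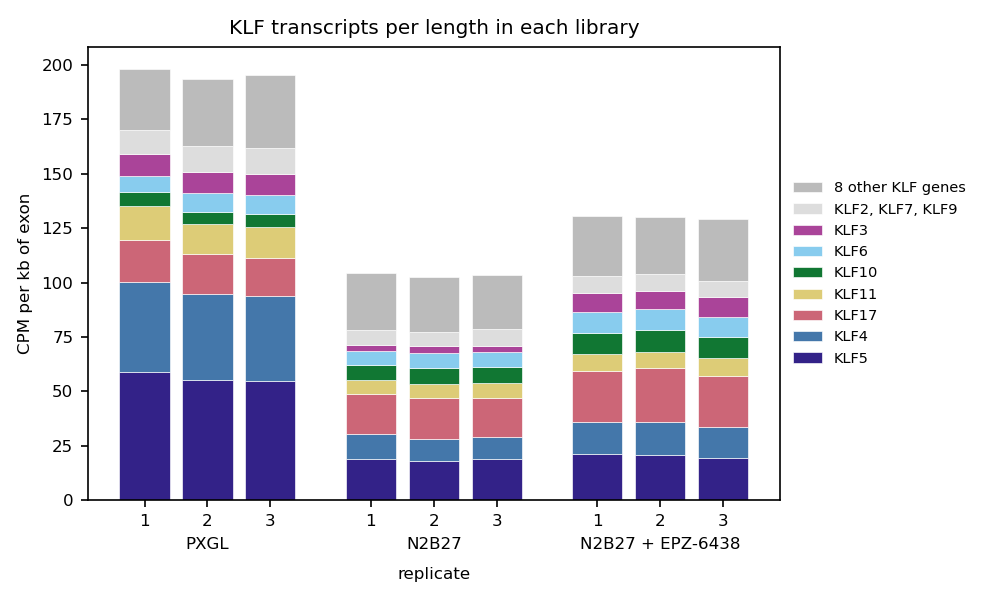
Level of all 18 KLF genes in CPM per kb of exon, stacked for each of the 9 libraries, with KLF2, KLF7 and KLF9 joined and the 8 other KLF genes joined. The bars reach about 196 in PXGL, 104 in N2B27 and 130 with the inhibitor, and the KLF5 and KLF4 segments are largest in PXGL.

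The remaining KLF genes and the related SP factors, which share the zinc finger domain, give the setting. Of 17 such genes, 13 were tested, and KLF1, KLF14, SP7 and SP9 were below the filter. With the inhibitor against N2B27, 6 were higher, 2 were lower and 5 were not called (median log2 0.11). Over all genes tested, 14.2% were higher and 10.6% lower. SP5, a WNT-responsive factor, rose from 5.28 ± 0.498 to 23.3 ± 1.14 CPM (4.41-fold, n = 3 each, edgeR quasi-likelihood adjusted p = 9.62e-09). KLF18 rose 3.16-fold from 3.31 ± 0.892 to 10.5 ± 0.247 CPM (n = 3 each, edgeR adjusted p = 8.07e-06). KLF18 is the neighbour of KLF17 on chromosome 1: KLF17 ends at 44135140 and KLF18, on the opposite strand, begins at 44137821, with a gap of 2680 bases. In PXGL KLF18 stood at 3.08 ± 0.0579 CPM (SD, n = 3), and its difference between N2B27 and PXGL was not called (log2 0.10, SE 0.21), as for KLF17.

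KLF12, which like KLF3 binds CTBP, rose 3.19-fold with the inhibitor from 1.14 to 3.68 CPM (edgeR adjusted p = 0.0019). KLF8, the third CTBP-binding member of the family, rose 1.30-fold from 23.5 to 30.5 CPM (edgeR adjusted p = 0.0119) after standing at 49.1 CPM in PXGL. SP6 rose 2.58-fold (adjusted p = 7.13e-05) and SP3 1.21-fold (adjusted p = 0.0121). KLF16 and SP4 fell, by 1.27-fold (adjusted p = 0.0472) and 1.33-fold (adjusted p = 0.0167). SP1, KLF13, KLF15, SP2 and SP8 were not called, with log2 differences of -0.07, 0.11, 0.05, -0.05 and 0.01. This count of 8 called genes was 4 without N2B27 replicate 2, and 5 without the third N2B27 library or without replicate 2 or 3 of the inhibitor group.

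From PXGL to N2B27, 3 of these 13 genes were higher (SP5, KLF15 and SP3), 4 were lower (KLF8, SP8, SP6 and KLF16) and 6 were not called (median log2 0.10). SP5 rose 4.09-fold from 1.28 to 5.28 CPM (edgeR adjusted p = 9.33e-08), and KLF15, a metabolic regulator, rose 2.41-fold from 1.58 to 3.82 CPM (adjusted p = 0.000555). KLF8 was 2.09-fold lower (adjusted p = 1.27e-07), and SP8 was 1.85-fold lower (adjusted p = 2.76e-06). The inhibitor group compared with PXGL had 6 higher, 4 lower and 3 not called (median log2 0.13). Among all genes tested, 27.3% were higher and 28.7% lower from PXGL to N2B27. The shares were 28.1% and 28.0% with the inhibitor against PXGL.

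**Figure D4:**
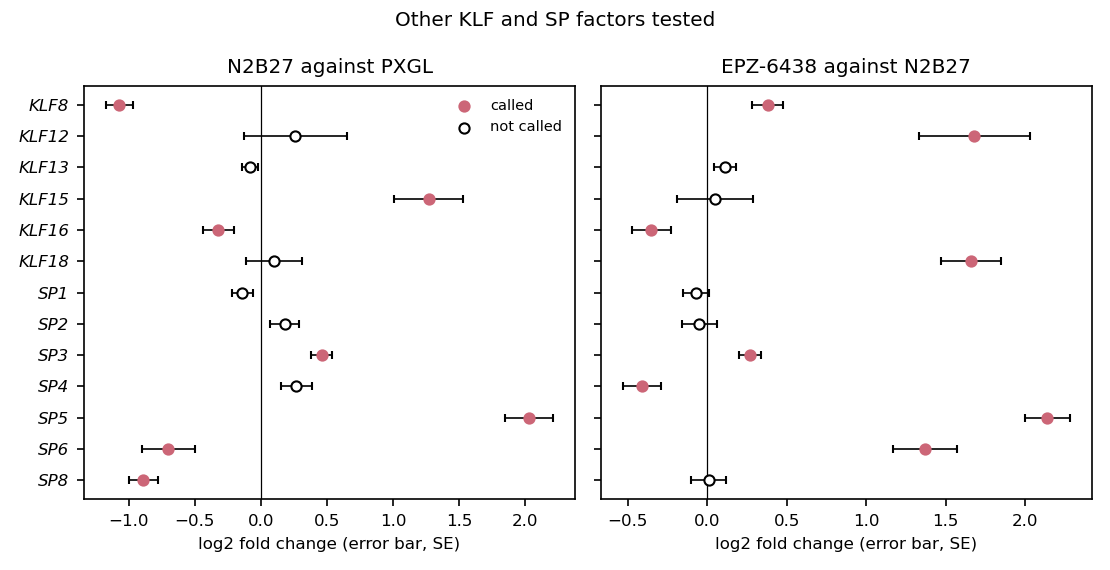
Log2 fold change, with bars of 1 SE, of the 13 other KLF and SP genes that were tested, for N2B27 against PXGL on the left and the inhibitor against N2B27 on the right, with filled points for genes called at an adjusted p under 0.05. SP5 is highest in both panels, at 2.03 and 2.14, and KLF12 and KLF18 follow on the right at 1.68 and 1.66.

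KLF proteins work with corepressors and coactivators and are turned over by ubiquitin ligases. Of 13 genes for such cofactors and regulators of KLF stability, 1 was higher, 2 were lower and 10 were not called with the inhibitor against N2B27 (median log2 -0.01), beside 24.7% of all genes called, so this count is near the background. HDAC1, a deacetylase of the SIN3 complex, fell from 190 ± 3.35 to 157 ± 2.95 CPM (log2 -0.27, n = 3 each, edgeR adjusted p = 0.00359). HDAC3 fell from 67.6 to 55.6 CPM (adjusted p = 0.015), and FBXW7, the ubiquitin ligase subunit that targets KLF5 for degradation, rose from 33.8 to 40.3 CPM (adjusted p = 0.0456). The count of 3 called genes was 5 without PXGL replicate 1 or with only the 2 groups fitted, and 1 without replicate 1 or 2 of N2B27 or replicate 1 or 3 of the inhibitor group. CTBP1 stood at 79.9 CPM in N2B27 and 74.0 CPM with the inhibitor, and CTBP2 at 157 and 147 CPM, and neither was called. From PXGL to N2B27, 6 of the 13 were higher and none was lower (median log2 0.19), among them the acetyltransferase CREBBP (102 to 151 CPM, edgeR adjusted p = 0.000147), the corepressor CTBP2 (131 to 157 CPM, adjusted p = 0.000905) and SIN3B (42.2 to 54.4 CPM, adjusted p = 0.0016). The inhibitor group compared with PXGL had 6 higher, 1 lower and 6 not called. All genes tested had 27.3% higher and 28.7% lower from PXGL to N2B27. With the inhibitor against PXGL they had 28.1% higher and 28.0% lower.

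KLF factors act inside the pluripotency network of naive cells. A list of 20 of its other genes mixed naive markers with general pluripotency factors, and all were tested. From PXGL to N2B27, 7 were lower and 5 higher (median log2 -0.01). With the inhibitor against N2B27, 10 were lower and 4 higher (median log2 -0.25). The 10 lower genes included the general markers POU5F1, SOX2, NANOG and DPPA4 and naive markers such as DPPA3. The 4 higher genes were TBX3, DNMT3L, SUSD2 and ARGFX. TBX3, a factor downstream of LIF in mouse embryonic stem cells, fell from 24.1 ± 3.29 to 1.22 ± 0.0321 CPM on leaving PXGL and rose to 22.6 ± 0.906 CPM with the inhibitor (n = 3 each, edgeR adjusted p = 2.11e-12 and 6.18e-11). FGF4 fell at both steps, from 232 to 101 CPM (adjusted p = 4.16e-10) and to 49.5 CPM (adjusted p = 2.77e-08). DNMT3L fell from 731 to 366 CPM on leaving PXGL (adjusted p = 9.97e-09) and rose to 599 CPM with the inhibitor (adjusted p = 2.75e-06). SOX2 fell from 116 to 63.6 CPM with the inhibitor (adjusted p = 5.53e-07). Against PXGL, 10 genes of the list were lower and 6 higher with the inhibitor (median log2 -0.20). The shares over all genes tested were 28.7% lower and 27.3% higher from PXGL to N2B27. They were 10.6% lower and 14.2% higher with the inhibitor against N2B27, and 28.0% and 28.1% against PXGL.

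LIF signalling through STAT3 is described as an activator of KLF4, and MEK5-ERK5-MEF2 signalling as an activator of KLF2 and KLF4. Of 11 genes of the LIF-JAK-STAT3 pathway, 7 were higher and 1 lower with the inhibitor against N2B27 (median log2 0.41). The lower gene was STAT3 itself, which fell from 92.9 to 72.1 CPM (edgeR adjusted p = 0.00717). The shared receptor subunit IL6ST rose from 236 ± 12.9 to 428 ± 8.65 CPM (n = 3 each, edgeR adjusted p = 6.27e-07), LIFR from 27 to 46.9 CPM (adjusted p = 1.45e-05) and OSMR from 8.24 to 20.9 CPM (adjusted p = 1.67e-05). From PXGL to N2B27, 3 were higher and 1 lower: SOCS3, a feedback inhibitor induced by STAT3, rose from 1.60 to 10.9 CPM (adjusted p = 6.89e-09), PIM1 from 76.4 to 122 CPM (adjusted p = 1.16e-07) and LIF itself from 14.0 to 18.8 CPM (adjusted p = 0.00377), and BCL3 fell from 8.70 to 2.32 CPM (adjusted p = 3.89e-07). SOCS3 stood at 11.1 CPM with the inhibitor and was not called against N2B27. With the inhibitor against PXGL, 7 were higher and 2, STAT3 and BCL3, were lower (median log2 0.65). Over all genes tested, 14.2% were higher and 10.6% lower with the inhibitor against N2B27. The shares were 27.3% and 28.7% from PXGL to N2B27, and 28.1% and 28.0% with the inhibitor against PXGL.

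Of 7 tested genes of the MEK5-ERK5-MEF2 pathway, edgeR called none with the inhibitor against N2B27 (median log2 0.02). At an unadjusted p under 0.05 the count was 1, and DESeq2 called 0. The edgeR count was 1 without PXGL replicate 1, with only the 2 groups fitted or without the low-count filter. MAPK7, the gene of ERK5, stood at 20.8 CPM in N2B27 and 18.7 CPM with the inhibitor. From PXGL to N2B27, 4 were lower and 1 higher (median log2 -0.38). MAP3K2 fell from 93.7 to 71.5 CPM (edgeR adjusted p = 0.000746), MEF2A fell from 35.5 to 27.3 CPM (adjusted p = 0.00726), and MAP3K3 rose from 17.9 to 26.2 CPM (adjusted p = 0.00141). That count of 5 was 3 without PXGL replicate 2 or N2B27 replicate 1. Compared with PXGL, 1 gene (MAP3K2) was lower with the inhibitor, and the count was 3 without PXGL replicate 1 and 2 without PXGL replicate 2. Beside this, 24.7% of all genes tested were called with the inhibitor against N2B27. From PXGL to N2B27 the share was 56.0%, and with the inhibitor against PXGL it was 56.1%.

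KLF6 and KLF10 are counted among the early genes induced by serum and TGF-beta. Of 17 tested immediate early genes, 13 were higher and 3 lower from PXGL to N2B27 (median log2 1). CCN1 rose from 11.1 ± 0.884 to 73.3 ± 3.01 CPM (n = 3 each, edgeR adjusted p = 2.13e-13) and MYC from 2.73 ± 1.03 to 50.2 ± 3.12 CPM (n = 3 each, adjusted p = 2.4e-12). BTG2, an antiproliferative gene, fell from 36.8 to 7.98 CPM (adjusted p = 2.95e-11). With the inhibitor against N2B27, 4 were higher, 3 lower and 10 not called (median log2 0.09). BTG2 rose to 35.7 CPM (adjusted p = 4.36e-10), ATF3 from 23.3 to 44.7 CPM (adjusted p = 1.45e-06) and JUN from 15.2 to 28.8 CPM (adjusted p = 7.08e-05). The 3 lower genes were CCN1, which fell to 55.3 CPM (adjusted p = 0.000884), CCN2 (25.5 to 18.2 CPM) and SRF (128 to 107 CPM). The count of 7 was 11 when only the 2 groups were fitted. Against PXGL, 13 were higher and 2 lower with the inhibitor (median log2 1.26). Among all genes tested, 27.3% were higher and 28.7% lower from PXGL to N2B27. The shares with the inhibitor were 14.2% and 10.6% against N2B27, and 28.1% and 28.0% against PXGL.

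TGF-beta and NODAL signalling is the described inducer of KLF10 and KLF11. Of its 14 responsive genes, all tested, 10 were higher and 2 lower from PXGL to N2B27 (median log2 0.77), and 8 were higher and 1 lower with the inhibitor against N2B27 (median log2 0.50). LEFTY2, a NODAL antagonist and target, rose from 151 ± 15 to 379 ± 9.98 CPM and then to 845 ± 16.2 CPM (n = 3 each, edgeR adjusted p = 9.73e-11 and 3.54e-09). CER1, another NODAL antagonist, rose from 2.72 to 24.4 CPM with the inhibitor (adjusted p = 9.63e-09), and PMEPA1 from 33.1 to 62.8 CPM (adjusted p = 7.2e-07). PMEPA1 was lower in N2B27 than in PXGL, where it stood at 54.6 CPM. Whether this signalling acted on KLF10 or KLF11 here was not tested. With the inhibitor against PXGL, 11 of the 14 were higher and 1 lower (median log2 0.81). All genes tested had 27.3% higher and 28.7% lower from PXGL to N2B27. With the inhibitor they had 14.2% and 10.6% against N2B27, and 28.1% and 28.0% against PXGL.

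Of 7 tested receptors and targets of glucocorticoid and thyroid hormone, the described inducers of KLF9, 2 were higher and 2 lower from PXGL to N2B27 (median log2 0.23), and 2 were higher and none lower with the inhibitor against N2B27 (median log2 -0.02). SGK1 rose from 107 to 231 CPM (edgeR adjusted p = 7.1e-09), PER1 fell from 40.7 to 20.9 CPM (adjusted p = 6.84e-07), and FKBP5 fell from 95.6 to 56.8 CPM (adjusted p = 1.05e-05). The receptor gene NR3C1 rose with the inhibitor from 29.4 to 43.9 CPM (adjusted p = 0.00209), and TSC22D3 from 24.4 to 33.6 CPM (adjusted p = 0.00164). This count of 2 with the inhibitor was 4 without PXGL replicate 1 or with only the 2 groups fitted. Against PXGL, 4 were higher and 3 lower with the inhibitor. The shares over all genes tested were 27.3% higher and 28.7% lower from PXGL to N2B27. They were 14.2% and 10.6% with the inhibitor against N2B27, and 28.1% and 28.0% against PXGL.

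Among 11 tested epithelial and cell cycle genes described as KLF targets, 6 were higher and 3 lower from PXGL to N2B27 (median log2 0.48). KRT18, a keratin of simple epithelia, rose from 137 to 842 CPM (edgeR adjusted p = 7.87e-13), CCND1, the cyclin D1 gene, from 120 to 267 CPM (adjusted p = 1.51e-10) and KRT8 from 337 to 819 CPM (adjusted p = 6.57e-11). With the inhibitor against N2B27, 6 were higher and 2 lower (median log2 0.26). CDKN1A, the cell cycle inhibitor p21 that KLF4 and KLF6 are described to activate, rose from 28.1 ± 2.21 to 88.3 ± 2.83 CPM (n = 3 each, adjusted p = 7.17e-10). ODC1 rose from 154 to 327 CPM (adjusted p = 7.58e-09), and KRT8 rose to 1082 CPM (adjusted p = 0.000199). Against PXGL, 8 were higher and 2 lower with the inhibitor (median log2 0.42). Over all genes tested, 27.3% were higher and 28.7% lower from PXGL to N2B27. The shares with the inhibitor were 14.2% and 10.6% against N2B27, and 28.1% and 28.0% against PXGL.

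The genes most like each KLF were found by Pearson's r of log2 CPM over the 9 libraries, among 10538 genes with a mean of at least 5 CPM. With only 3 groups such values describe a shared course over the groups and carry no test. KLF3 was closest to SLC12A7 (r = 0.9961; 63.7, 28.4 and 57.8 CPM in PXGL, N2B27 and the inhibitor group), to the homeobox gene MEIS2 (r = 0.9955; 10.4, 0.734 and 8.54 CPM) and to SLC39A11 (r = 0.995). KLF4 was closest to PYGB, GLIPR2 and RBBP9 (r = 0.9976 to 0.9961), and KLF5 to DEPTOR, TBCD and GNAI2 (r = 0.9975 to 0.9958). KLF17 had OGFRL1 (r = 0.98), TMEM168 and TXNIP nearest, of which TXNIP stood at 40.7, 37.4 and 91.3 CPM. KLF10 was nearest to TNFRSF10C (r = 0.9927; 2.99, 4.58 and 8.36 CPM), HNRNPH1 and HACD2, and KLF6 to TC2N (r = 0.9844), ADAM17 and SDK2. KLF11 was nearest to SLC25A16 (r = 0.9954), PSAP and FLAD1. KLF7 was nearest to SAMD8 (r = 0.9911), CES2 and PIAS1, and KLF9 to CCS (r = 0.9942), SEC31B and LEMD2. KLF2, with the fewest counts, had the lowest nearest value, r = 0.9666 with NDUFAF1, followed by CCDC167 and MXD3.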

How the data were processed

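The authors deposited expected counts, which are estimates and can be fractional, for 9 libraries and 40332 gene symbols. Tools named in the submitters' processing notes are STAR 2.7.6a, Trim Galore and DESeq2, with the build hg38; counting program and annotation: not given in the sources used here. Per the labels' protocols, total RNA was depleted of ribosomal RNA, although the molecule label names polyA RNA. Reads shared by overlapping genes or near-identical copies carry an uncertain split.

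Counts were rounded (7.13% to 8.09% of values per library were not whole), and genes were kept with edgeR's filterByExpr, which left 15179 of 22640 detected genes. The 9 libraries entered a joint fit with TMM scaling and a robust quasi-likelihood fit (edgeR 4.0.16, R 4.3.3), with no replicate block. The 3 pairs of groups were compared at a Benjamini-Hochberg adjusted p under 0.05, and a standard error is the log2 fold change over the square root of F. CPM use TMM-scaled library sizes. The script was tested on simulated data. No replicate pair agreed within sampling noise (lowest chi-square per degree of freedom 2.57), and all were kept as separate samples; floors cover counting error only.

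The members and the gene lists were chosen with earlier results of these data known. The rule for named genes took all members, up to 3 called genes of each list with the smallest adjusted p in each comparison, every tested KLF or SP gene and the 3 genes most correlated with each member. Other genes were named after their values were seen. A gene within this rule is not reported here. Coordinates came from GENCODE 29, promoter windows from RefSeq GRCh38.p14. Alternatives were DESeq2 size factors, DESeq2 (1.42.0), other low-count filters, only the 2 groups compared, a replicate block, transcript length and leaving out each library.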

Additional observations from a re-analysis of the deposited data

How the results depend on the processing

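Of 450 values of the 30 member fold changes under 15 alternatives, 429 kept their direction and call, 12 lost the call, 2 gained it and 7 turned direction, none of them called. KLF2 with the inhibitor against N2B27 turned to -0.17 without inhibitor replicate 1, in a range of -0.17 to 0.67 over the fits that left out a library. KLF17 from PXGL to N2B27 (-0.01) turned to 0.01 with DESeq2 size factors and with DESeq2, to 0.00 without the low-count filter and with only the 2 groups, to 0.03 without PXGL replicate 1 and to 0.02 without N2B27 replicate 3, in a range of -0.05 to 0.03 over the fits that left out a library. KLF6 against PXGL lost its call without the low-count filter (log2 0.20), with only the 2 groups (0.21) and without PXGL replicate 1 (0.15), inhibitor replicate 1 (0.21) or inhibitor replicate 2 (0.20). The causes were not tested. The number of members called over the fits that left out a library was 5 to 7 for the inhibitor against N2B27, 8 to 9 for N2B27 against PXGL and 8 to 9 for the inhibitor against PXGL. All genes called for the inhibitor against N2B27 numbered 3752, and 5641 when only the 2 groups were fitted. The number was 2762 to 5770 when a library was left out, highest without PXGL replicate 1. The share of higher calls was 57.3%. It was 51.8% with only the 2 groups fitted and 51.7% without PXGL replicate 1, but 57.8% without PXGL replicate 2 and 56.4% without PXGL replicate 3. Of 405 list counts, 385 stayed within 1.5 times.

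Same-numbered libraries showed no shared deviation, with correlations of -0.03 to 0.04, beside -0.05 to 0.02 for differently numbered ones. Such values cannot show whether the samples were paired by design. With a replicate block 3696, 8507 and 8489 genes were called against 3752, 8505 and 8515 without it, and no member's call changed. KLF2 had 5 to 55 counts per library, which limits its comparison between N2B27 and the inhibitor.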
